A study of Danio rerio with 7 samples.

Results

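The wells described here were each taken to hold 1 cardiomyocyte of an hmga1a+/+ zebrafish, and at least 1 hmga1a transcript was counted in each. They numbered 76 of the 471 wild-type cardiomyocyte wells, and of 2688 wells in the files. A well was taken as a cardiomyocyte when it held at least 1000 transcripts outside spike-ins and mitochondrially encoded genes and when MYL7, the atrial-type myosin light chain that zebrafish cardiomyocytes express throughout the heart, made up at least 2% of them. The measured hmga1a value (ENSDARG00000028335) therefore chose the wells, and hmga1a was left out of every readout. Each positive well was paired within its plate with a well of almost the same total in which no hmga1a transcript was counted.

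All cells came from adult ventricles 7 days after cryoinjury, of fish carrying Tg(nppa:mCitrine), a reporter driven by the natriuretic peptide promoter nppa. The brightest reporter cells were collected singly in 384-well plates. The colour of the sort is mCitrine in the series text and mCherry in the labels' protocol. The wild-type line, Tg(nppa:mCitrine);hmga1a+/+, gave 3 plates, and the mutant line, Tg(nppa:mCitrine);hmga1a-/-, gave 4 plates, from 12 hearts per genotype. The plates add up to 1152 wells in wild type and 1536 in mutants, more than the 768 cells that the series text states for each genotype, and no source used here explains the gap. Hearts are not tied to plates, so the spread between plates may be technical. No source used here gives the age of the fish or the lesion of the mutant allele.

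Hmga1 is a small chromatin protein that binds AT-rich DNA through AT-hooks and bends it, and it is abundant in embryonic and dividing cells. The adult zebrafish heart replaces lost muscle by division of existing cardiomyocytes, mostly in the border zone beside the injury, where nppa is switched on. Single-cell counts catch only a share of a cell's messenger RNA, so a well with no hmga1a transcript is not shown to be a cell without it.

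Few wells carried more than a handful of hmga1a transcripts. Of the 471 wells 92 came from plate 1. The 3 wild-type plates held 4, 37 and 35 positive wells, or 4.35% of the plate's cardiomyocyte wells (95% Clopper-Pearson interval 1.197 to 10.8%), 19.2% (13.9 to 25.4%) and 18.8% (13.5 to 25.2%). Plate 1 thus held far fewer positive wells than plates 2 and 3. It was also shallower. Its cardiomyocyte wells without hmga1a had a median of 1481 transcripts, against 2541 and 2432 in plates 2 and 3. Of the 76 wells, 35 held 1 UMI of hmga1a (a UMI is a random barcode that marks 1 captured molecule), 26 held 2 and 15 held 3 or more, with 11 in the richest well and 150 in all.

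The same rule found 26 positive wells among 481 cardiomyocyte wells of hmga1a-/- plates, so hmga1a transcripts were still counted in mutants. By plate these were 9.17%, 7.79%, 2.38% and 4.72% of mutant cardiomyocyte wells, so the 4.35% of wild-type plate 1 lay under 3 of the 4 mutant shares. Detection rose with depth in both genotypes. Among wells of 1000 to 2000 transcripts 9.84% were positive in wild type and 1.94% in mutants, against 32.7% and 16.5% among wells of 4000 or more. In 1 random thinning of every well to 1000 transcripts, 4.35%, 11.9% and 6.99% of wells were positive in the wild-type plates and 1.84%, 2.597%, 1.79% and 1.58% in the mutant plates. The thinned shares did not overlap in this draw, but that of wild-type plate 1 rested on 4 positive wells and those of the mutant plates on 2 or 3 each. No cell type known to lack hmga1a was measured, so the level given by free RNA is not known. Intervals on shares of wells cover counting error only.

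**Figure D1:**
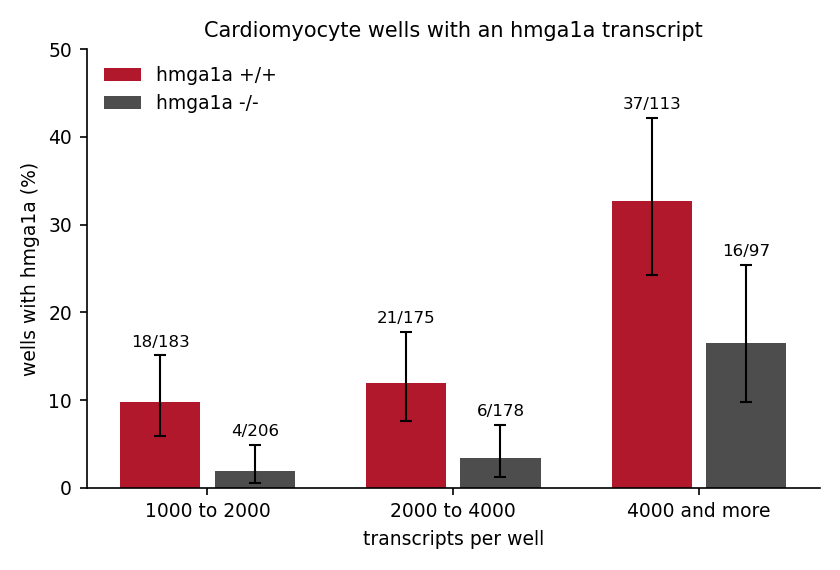
Share of cardiomyocyte wells with an hmga1a transcript (y axis, percent) by transcripts per well (x axis), in wild-type wells (red) and mutant wells (grey). Bars are shares over all plates of a genotype, error bars are 95% Clopper-Pearson intervals, and the numbers are positive over all wells. The share was highest in the deepest wells of both genotypes, 32.7% in wild type and 16.5% in mutants.

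Few hmga1a-positive wells lay close to either threshold. This covers positive wells only. Of all 1152 wild-type wells, 653 held under 1000 transcripts, and a matched zero well of plate 3 had a MYL7 share of 2.62%. A single positive well held 1000 to 1200 transcripts, and 1 further wild-type well with hmga1a and enough MYL7 held 800 to 1000. No positive well had a MYL7 share of 2 to 3%, while 1 well with hmga1a fell between 1 and 2%. The 76 wells had MYL7 shares of 3.37 to 12.5%, with a median of 6.65%, and the 14 cardiomyocyte markers gave 1321, 1655 and 1758 of every 10000 transcripts by plate, against 1797, 1837 and 1715 in matched zero wells. These markers include MYL7, which chose the wells on both sides, so their sums are not independent of that choice. MYL7 gave 803 of 1692, 11674 of 29368 and 10204 of 27277 marker transcripts in positive wells. In zero wells it gave 1274 of 2345, 12477 of 32390 and 9956 of 26410. Markers of other cells were far scarcer than these, to a degree that differed by list. Endothelial markers gave 2 transcripts in positive wells and 4 in zero wells, and 6 of the 10 were at 0 on both sides. Smooth muscle and pericyte markers gave 1.561, 1.071 and 2.579 of every 10000 transcripts in positive wells by plate, against 9.195, 2.496 and 1.818 in zero wells. The leukocyte list and the fibroblast and epicardial list, both described below, held more transcripts in positive wells when summed over plates.

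Matching equalised depth, not complexity. Totals within a pair differed by a median of 0.972% and by 20.7% at most. The summed sides of plates 1 to 3 held 12812, 177424 and 155124 transcripts for positive wells, and 13050, 176301 and 154033 for zero wells. Plate 1 carried by far the least.

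Median genes detected per well were 764, 801 and 738 in positive wells, against 584.5, 601 and 709 in zero wells. The mean over plates was 768 ± 31.7 in positive wells and 632 ± 67.6 in zero wells (SD, n = 3 plates), a difference of 136.2 genes. It was higher in 3 of 3 plates (exact sign-flip permutation test over plates, two-sided p = 0.25, the smallest that 3 pairs allow). With wells of at least 2000 transcripts plate 3 reversed, with 792.5 genes in positive wells against 818.5 in zero wells. Median mitochondrially encoded shares were 0.631%, 0.734% and 0.792% in positive wells, against 0.836%, 0.974% and 0.878% in zero wells. These were lower in 3 of 3 plates (exact sign-flip permutation p = 0.25, two-sided). Without a MYL7 threshold plate 1 reversed, with 0.944% in positive wells against 0.836% in zero wells. Spike-in shares were 35.5% ± 10.6 in positive wells and 35.9% ± 12.97 in zero wells (SD, n = 3 plates), and showed no common direction (exact sign-flip permutation p = 1.0, two-sided).

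**Figure D2:**
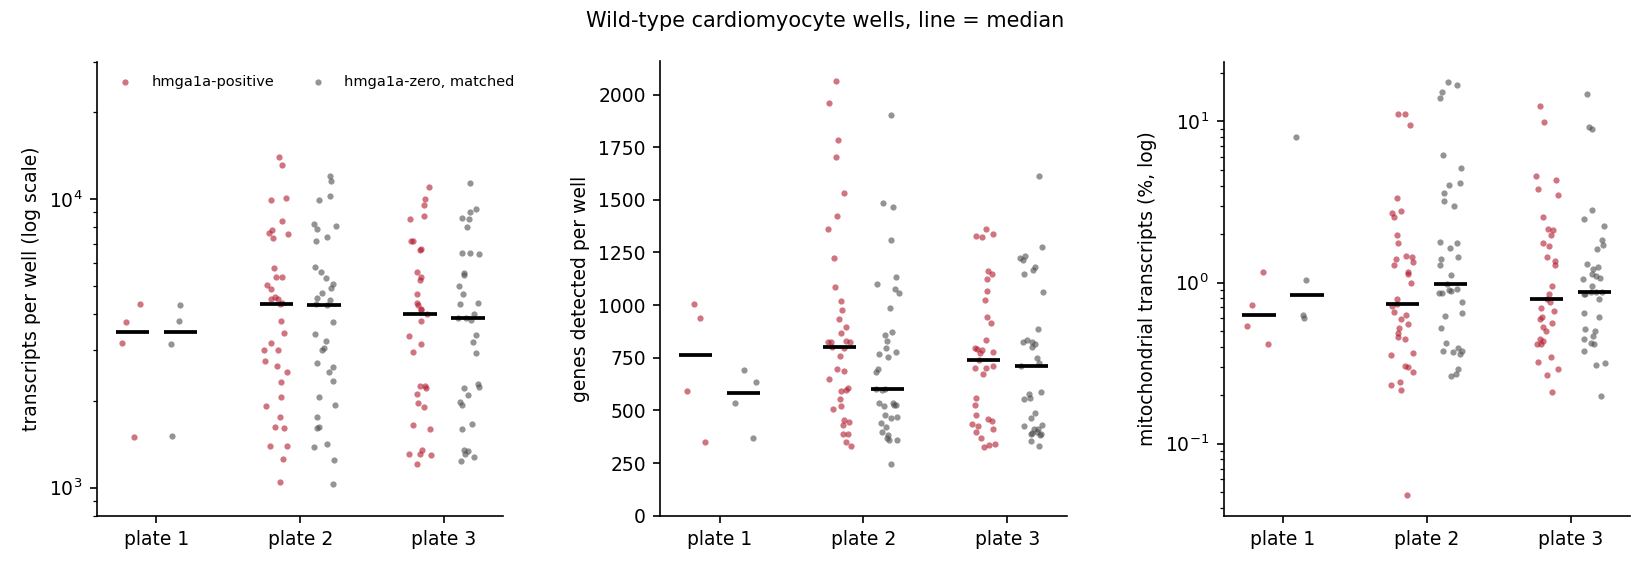
Transcripts per well (left, log scale), genes detected per well (middle) and share of mitochondrially encoded transcripts (right, percent, log scale) for each hmga1a-positive well (red) and matched hmga1a-zero well (grey) of the 3 wild-type plates. Black lines are medians. Totals match, while median genes per well are higher in positive wells of each plate (764, 801 and 738, against 584.5, 601 and 709).

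The first comparison asks which other transcripts differed between wells in which hmga1a was and was not counted. Little did. One gene was called higher and 8 lower among 1163 tested, which is 0.774% of genes, 0.086% higher and 0.688% lower (edgeR quasi-likelihood test on sums per plate and side, paired by plate, Benjamini-Hochberg adjusted p under 0.05). At an unadjusted p under 0.05 there were 46 genes. The higher gene is ENSDARG00000093817, which carries no symbol in the tables used. The lower ones were 6 mitochondrially encoded messengers and a pair of genes without a symbol. The edgeR fit estimated an infinite prior, which means that all genes shared 1 estimate of excess spread, so the small p-values do not rest on each gene's own plates. Without plate 1, the only wild-type plate of the first sequencing run, 12 genes were called. DESeq2 called 3 genes, and limma-voom called 0 genes, with 44 at an unadjusted p under 0.05.

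ENSDARG00000093817 had 3158, 1400 and 523.1 CPM in positive wells of plates 1 to 3, against 80.4, 186.8 and 280.3 CPM in zero wells. CPM is TMM-scaled over the tested genes. All 3 positive sums lay above all 3 zero sums, a trait that was not counted over all 1163 tested genes. Plate 1 rested on 43 transcripts against 1. The mean was 1694 ± 1342 CPM in positive wells and 182.51 ± 100.03 CPM in zero wells (SD, n = 3), and the log2 fold change was 2.29 (SE 0.34, edgeR adjusted p = 1.8e-08). It was counted in 38 of 76 positive wells and in 27 of 76 zero wells, and no single well held more than 16.6% of the positive sum. The call held in 18 of 22 alternatives, with log2 fold changes of 1.78 to 3.44. It was lost with limma-voom, with the filter over all 6 sums, with positivity set at 2 or more UMIs and without plate 2 (edgeR adjusted p = 0.997).

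The level of ENSDARG00000093817 also differed with the number of hmga1a UMIs. It stood at 3.64 transcripts per 10000 in wells with 1 hmga1a UMI, 5.93 with 2 and 23.8 with 3 or more, against 1.86 in matched zero wells. Mutant wells gave 1.85, 0.415 and 20.9 per 10000 in the same classes, against 1.51 in their matched zero wells. The highest level of both genotypes was in the richest class, which held 15 wild-type and 6 mutant wells. The wells of a class were pooled over plates, and 11 of the 15 wild-type wells came from plate 2. In the richest class 1 well held 55.4 of 215.02 transcripts in wild type and 1 well 42.2 of 95.4 in mutants. The classes use the same hmga1a values that chose the wells, and depth was not matched between them. This is therefore a description with no test, not further support for the call.

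Mitochondrially encoded transcripts were fewer in positive wells. These genes code for subunits of the respiratory chain and ATP synthase and are transcribed inside the organelle. They made up 0.702%, 1.23% and 1.27% of the summed transcripts in positive wells, against 2.598%, 2.303% and 1.785% in zero wells. Of 13 listed genes 10 were tested, 6 were called lower and 0 higher, and 8 were lower in all 3 plates. Their median log2 fold change was -0.97, beside 0.02 over all tested genes. For comparison, 14.3% of all tested genes were lower in all 3 plates.

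MT-CO1, the catalytic subunit of cytochrome oxidase, had 734, 1667 and 1348 CPM in positive wells, against 3375, 3958 and 2928 CPM in zero wells. The groups did not overlap, a trait not counted over all tested genes. The mean was 1250 ± 474 CPM in positive wells and 3420 ± 517 CPM in zero wells (SD, n = 3), and the log2 fold change was -1.33 (SE 0.23, edgeR adjusted p = 1.46e-06). The other called genes were MT-CO2 (-1.11) and MT-CO3 (-1.08), further oxidase subunits, MT-ATP6 (-1.02) of ATP synthase, MT-CYB (-1.003) of complex III and MT-ND4 (-0.79) of complex I, all as log2 fold changes. The remaining 4 did not pass: MT-ND3 (-0.93), MT-ND1 (-0.92), MT-ND5 (-0.89) and MT-ND2 (-0.52), of which MT-ND5 and MT-ND2 were higher in 1 plate. MT-ND2 and MT-ND3 were named after their values were seen.

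ENSDARG00000080337, without a symbol, had 6168, 13145 and 12636 CPM in positive wells, against 84225, 37073 and 28948 CPM in zero wells (log2 fold change -2.04, SE 0.22, edgeR adjusted p = 1.21e-17). All positive sums lay under all zero sums, which again was not counted over all tested genes. The call held in 14 of 22 alternatives, with log2 fold changes of -2.53 to -0.25, and that of ENSDARG00000082753 (log2 fold change -1.24) in 5 of 22, with -1.99 to -0.05. Over the wells of a plate the share of ENSDARG00000080337 ran with the mitochondrial share. Spearman coefficients were 0.853, 0.877 and 0.867 over wells that share a library, 471 in all. ENSDARG00000082753 gave 0.501, 0.531 and 0.509. ENSDARG00000093817, the gene that was higher, gave -0.016, -0.322 and -0.151. Lacking a symbol, the 2 lower genes were counted in the well totals and not in the mitochondrial share. Whether they are mitochondrially encoded was not determined. ENSDARG00000080337 made up 2.5%, 2.33% and 2.04% of the transcripts of cardiomyocyte wells by plate.

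The mitochondrial difference rested largely on few wells, and its calls varied with the choice of zero wells. Wells with over 5% mitochondrial transcripts numbered 5 of 76 on the positive side and 10 of 76 on the zero side, where they held 80.5%, 58.03% and 52.9% of these transcripts by plate. With such wells left out, a limit set after seeing the data, no mitochondrial gene was called. The median log2 fold change of the list was then -0.15 and that of MT-CO1 -0.55 (edgeR adjusted p = 0.999). With the second-best zero wells the list median was -0.47 and no mitochondrial gene was called either. ENSDARG00000080337 and ENSDARG00000082753 were called in neither setting. With 2 matched wells per positive well 5 of the 6 mitochondrial genes were called, and all 6 were called with all zero wells unmatched and with wells of at least 2000 transcripts. MT-CO1 was called in 14 of 22 alternatives, MT-CO2 in 7, MT-ATP6, MT-CO3 and MT-CYB in 6 each and MT-ND4 in 5. MT-CO1 alone of the 6 was called with DESeq2 size factors, the DESeq2 test, no plate block or no filter. The same held with the filter over all 6 sums, and with matching on mitochondrial genes too or on genes per well. ENSDARG00000093817 was called both without the wells over 5% and with the second-best wells, at log2 fold changes of 1.97 and 2.22. Without plate 2 no gene was called, and without plate 3 ENSDARG00000093817 was the 1 called gene, so mitochondrial calls needed both of these plates.

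**Figure D3:**
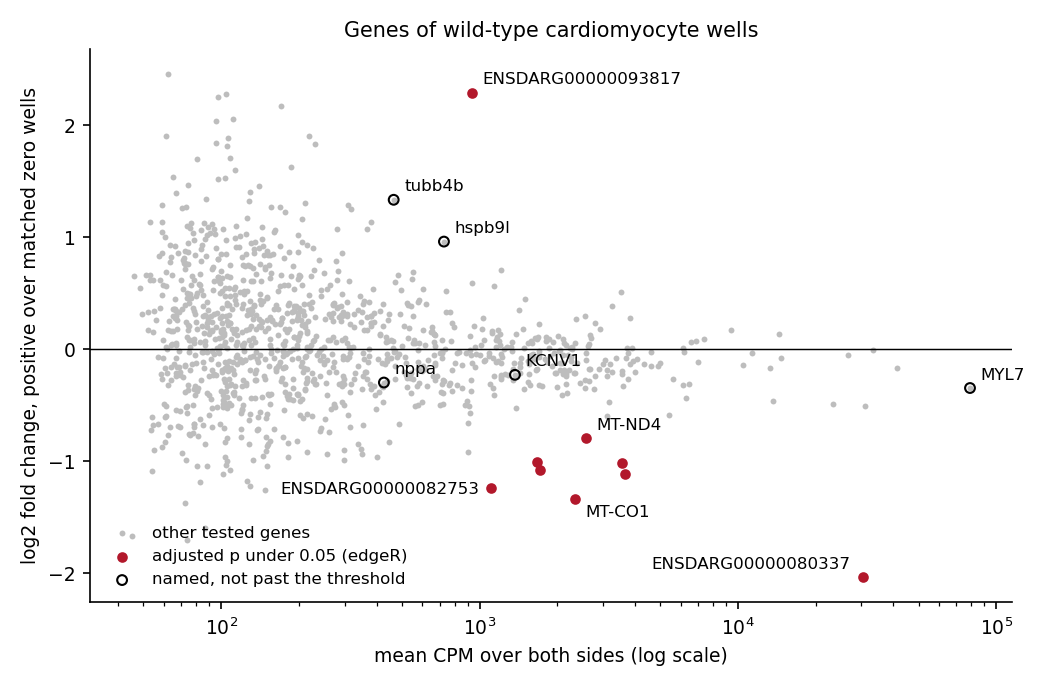
Log2 fold change of hmga1a-positive over matched zero wells (y axis) by mean CPM over both sides (x axis, log scale), 1 point per tested gene. Red points are the 9 genes with an edgeR adjusted p under 0.05, and open circles are named genes that did not pass. Only ENSDARG00000093817 (2.29) is red above the line, and MYL7, the most abundant gene labelled, lies at -0.35.

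No nuclear gene of the contractile and energy lists passed the test as reported. In alternatives, the glycolytic gene ALDOA (ENSDARG00000011665) was called with the second-best zero wells. The myosin gene myh6 (ENSDARG00000090637) was called without a filter on low counts. As reported, ALDOA was lower in all 3 plates (log2 fold change -0.47, edgeR adjusted p = 0.807). ENO3, the muscle enolase, had 1542, 5510 and 6012 CPM in positive wells, against 3938, 7564 and 7809 CPM in zero wells (log2 fold change -0.59, edgeR adjusted p = 0.377). It was lower in each plate, although the groups overlapped. The calcium pump gene atp2a2a stood at -0.60 (edgeR adjusted p = 0.377), the cardiac actin gene actc1a at -0.51 (0.622), GAPDH at -0.49 (0.641) and MYL7 at -0.35 (0.997). In each of these genes the gap was widest in plate 1, which held 4 pairs. MYL7 had 58965 against 102390 CPM there, and 75181 against 77517 CPM in plate 3. As an unscaled share MYL7 was higher in positive wells of plate 3. These held 10204 of 155124 transcripts, against 9956 of 154033 in zero wells. TMM factors were 1.239, 1.008 and 0.958 in positive wells of plates 1 to 3, against 1.02, 0.8945 and 0.916 in zero wells. The larger factors on the positive side lower its CPM. With the wells pooled over plates, unscaled, the log2 fold changes of atp2a2a, actc1a, GAPDH and MYL7 were -0.31, -0.17, -0.16 and -0.07. Of 23 tested sarcomere genes 0 were called, with a median of -0.11, and of 20 glycolytic genes 0 were called, with a median of -0.08. Nuclear-encoded complex I subunits (35 tested) and the subunits of complexes III, IV and ATP synthase (40 tested) gave 0 calls, with medians of -0.08 and -0.11. The 21 tested genes of the tricarboxylic acid cycle also gave 0 calls, with a median of 0.03 and 11 above zero. MYBPC3, a myosin-binding protein of the sarcomere named after its values were seen, was higher in all 3 plates (log2 fold change 0.28, edgeR adjusted p = 0.997).

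Genes of the non-muscle cytoskeleton lay above zero in 10 of 11 cases, with a median log2 fold change of 0.57 and 0 calls. Over all tested genes 603 of 1163 lay above zero. The beta-tubulin gene tubb4b had 1395, 502.6 and 368.4 CPM in positive wells, against 80.4, 193.8 and 249.2 CPM in zero wells. It was counted in 35 of 76 positive wells and 31 of 76 zero wells, and plate 1 rested on 19 transcripts against 1. The groups did not overlap, which was not counted over all tested genes. The log2 fold change was 1.33 (SE 0.43, edgeR adjusted p = 0.226). For mapre1b, which codes for a protein that binds growing microtubule ends, it was 2.05 (edgeR adjusted p = 0.622). The sums of mapre1b held 3, 24 and 19 transcripts in positive wells, against 1, 9 and 1 in zero wells. It was thus tested through its positive side, which favours a high fold change. The actin gene actb2 stood at 0.17 and turned to -0.07 without the leukocyte-rich well described next.

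The gene tmsb4x, whose product binds actin monomers, had 220.3, 903.5 and 390.5 CPM in positive wells, against 80.4, 221.5 and 373.7 CPM in zero wells (log2 fold change 1.08, edgeR adjusted p = 0.622). One positive well of plate 2 held 46.4% of the positive sum. That well had 3 hmga1a UMIs, 7334 transcripts, 1784 genes and a MYL7 share of 3.88%, and it held 117.6 transcripts of the leukocyte marker list. Per 10000 transcripts that list summed to 0, 6.76 and 0.258 in positive wells of plates 1 to 3, against 0.766, 0 and 0.195 in zero wells. The same well held 83.2% of the positive transcripts of fthl27, a ferritin heavy chain-like gene. The log2 fold change of fthl27 was 1.83 with this well and -0.06 without it. Leaving it out left the same 9 genes called.

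Other genes that were higher in every plate also missed the threshold. The small heat shock protein gene hspb9l had 587.5, 1113 and 1267 CPM in positive wells, against 80.4, 609 and 708.5 CPM in zero wells. The groups overlapped, and the log2 fold change was 0.96 (SE 0.32, edgeR adjusted p = 0.258). HSPA9, the mitochondrial HSP70, stood at 1.71, TIMM17A, a subunit of the inner-membrane import channel, at 1.25, and tp53inp2, an autophagy regulator, at 2.27. In plate 1 these 3 genes had 3, 11 and 5 transcripts in positive wells, against 0 in zero wells, and 1 well held those of tp53inp2. The filter by side kept genes abundant on 1 side alone. The zero sums of tp53inp2 had 0, 20.8 and 31.1 CPM, so it was tested through its positive side, which favours a high fold change. The same limit applies to HSPA9, with zero sums of 0, 34.6 and 77.9 CPM. Podocalyxin (podxl), the 1 tested marker of the fibroblast and epicardial list, stood at 1.14 and was higher in positive wells of all plates. The 13 markers of that list summed to 18, 41 and 45 transcripts in positive wells and 1, 20 and 35 in zero wells, and 8 of them were at 0. Most of these transcripts were podxl itself, with 18, 38 and 40 in positive wells and 1, 19 and 27 in zero wells. The part of these markers in the differences was not tested. For comparison, 12.5% of tested genes were higher in all 3 plates. PCCB, a subunit of propionyl-CoA carboxylase chosen here after its values were seen, was counted in 25 positive wells and 6 zero wells (log2 fold change 2.25, edgeR adjusted p = 0.377). PCCB was higher in plates 2 and 3 only, with 0 transcripts on both sides of plate 1.

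Genes related to hmga1a by family or by role gave no call. Of 11 members of the high mobility group list 6 were tested. hmgb2b, a DNA-bending protein of dividing cells, had 73.4, 114.5 and 162.1 CPM in positive wells, against 0, 55.4 and 101.2 CPM in zero wells (log2 fold change 0.93, edgeR adjusted p = 0.997). Its plate 1 values rested on 1 transcript against 0, so the limit given above for tp53inp2 applies to it too. The other log2 fold changes were 0.81 for HMGB3 (ENSDARG00000006408), 0.31 for HMGB3 (ENSDARG00000056725), -0.11 for hmgn7, -0.32 for hmgn6 and -0.02 for ptmaa, a prothymosin. The 2 HMGB3 copies may share reads. Among chromatin genes, H3-3B, which codes for the replacement histone H3.3, stood at 0.92. None of the 15 Polycomb and H3K27 genes with a transcript was abundant enough to be tested. Of 24 cell cycle genes with a transcript 1 was tested, the replication clamp PCNA, at 0.49, counted in 12 positive and 7 zero wells.

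No border zone gene passed the test. The sorting reporter's own gene nppa had 587.5, 324.5 and 287.4 CPM in positive wells, against 562.6, 366.8 and 428.2 CPM in zero wells (log2 fold change -0.30, edgeR adjusted p = 0.997). The chaperone partner BAG3 had 73.4, 114.5 and 95.8 CPM in positive wells, against 160.7, 290.7 and 132.4 CPM in zero wells. Its groups did not overlap, with a log2 fold change of -0.95 (SE 0.68, edgeR adjusted p = 0.997), and plate 1 rested on 1 transcript against 2. How many tested genes had groups without overlap was not counted, so this does not set BAG3 apart. The natriuretic peptide gene nppb stood at -0.10, acta2 at -0.58 and MUSTN1, a nuclear protein of muscle repair, at 0.41. Of 7 tested members of this list 0 were called. The median was -0.14.

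Cardiac transcription factors were found in more positive than zero wells in some cases without a call. TBX20 was counted in 31 positive and 16 zero wells, and its 73.4, 349.9 and 213.7 CPM in positive wells overlapped the 160.7, 48.4 and 163.5 CPM in zero wells (log2 fold change 1.27, edgeR adjusted p = 0.997). MEF2A, counted in 37 positive and 23 zero wells, stood at 0.62, HAND2 at 0.28 and NKX2-5 at -0.19. More genes of any kind were detected in positive wells, as given above. Of 8 tested factors 0 were called.

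Genes known to differ between the genotypes of this series were read in the same way. Of 22 tested, 1 was called, MT-ATP6. The list was chosen from these plates and is not independent evidence. KCNV1, a modulatory subunit of potassium channels, had 1102, 1470 and 1297 CPM in positive wells, against 884, 2021 and 1448 CPM in zero wells (log2 fold change -0.23, SE 0.25). The small heat shock protein gene hspb6 stood at -0.00 and RBP2, a retinol carrier, at -0.59. None of the 21 others passed the test.

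Mutant plates were split by the same rule, with 10, 6, 4 and 6 pairs. Depth was matched less closely there. Totals within a mutant pair differed by a median of 1.92% and by 91.4% at most, and the sums of mutant plates 1 to 4 held 62714, 34033, 17404 and 47196 transcripts for positive wells, against 60031, 28252, 17278 and 33387 for zero wells. The part of this gap in the mutant and 7-plate results was not tested. The wild-type minus mutant difference of the split was called in 0 of 600 genes (0.0%) by edgeR, with 13 at an unadjusted p under 0.05, and in 0 by DESeq2, with 11. For ENSDARG00000093817 the difference of log2 fold changes was 0.07 (edgeR adjusted p = 0.996), and for MT-CO1 it was -1.05 (0.991). Inside that fit 1 gene of 600 (0.167%) was called between the sides of mutant plates, hspb9l. A fit of the 4 mutant plates alone called 0 of 397 genes, with 21 at an unadjusted p under 0.05.

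ENSDARG00000093817 had 749, 88.2, 632 and 1102 CPM, here unscaled over all genes, in positive wells of mutant plates 1 to 4, against 299.9, 35.4, 0 and 59.9 in zero wells. It was higher in each plate, with 47, 3, 11 and 52 transcripts against 18, 1, 0 and 2. Yet it was counted in 9 of 26 positive mutant wells and in 10 of 26 matched zero wells. The 6 positive wells with 3 or more hmga1a UMIs held 95.4 of its 113.4 transcripts, and 1 of them held 42.2. Fitted alone, the mutant plates gave a log2 fold change of 2.39, with an unadjusted edgeR p of 0.0092 and an adjusted p of 0.411. MT-CO1 had 1579, 4378, 1264 and 3708 unscaled CPM in positive wells of mutant plates, against 4598, 2124, 1794 and 3834 in zero wells. It was lower in 3 of 4 mutant plates and higher in mutant plate 2.

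A fit of all 7 plates with 1 shared side effect was added after the mutant values had been seen. It called 3 of 436 genes (0.688%), all higher in positive wells. These were hspb9l (log2 fold change 1.43, SE 0.22, edgeR adjusted p = 0.0107), tubb4b (1.46, SE 0.26, 0.0276) and ENSDARG00000093817 (2.39, SE 0.46, 0.036). Each was higher in 7 of 7 plates, and DESeq2 and limma-voom called the same 3 genes. The same 7 plates chose these genes, so the agreement between plates is not further support. The tubulin gene tuba8l2 was also higher in 7 of 7 plates in unscaled CPM, without a call (edgeR adjusted p = 0.32). How many of the 436 tested genes were higher in all 7 plates was not counted. Without mutant plate 1 no gene was called, with 19 at an unadjusted p under 0.05. There hspb9l had an adjusted p of 0.0746 and tubb4b one of 0.163, and ENSDARG00000093817 was no longer tested. Without mutant plate 2 the count was 12, of which 9 were lower and 7 of those mitochondrially encoded. It was 1 without mutant plate 3 or 4 or wild-type plate 2, with hspb9l the gene that passed.

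In mutant plates hspb9l had 2121, 3732, 1034 and 1759 unscaled CPM in positive wells, against 499.7, 2124, 231.5 and 299.5 in zero wells. The values of tubb4b there were 1610.5, 1410.4, 862 and 1038, against 449.8, 707.9, 289.4 and 329.5. Both genes were higher in positive wells of every mutant plate. Yet hspb9l was counted in 21 of 26 positive and 19 of 26 zero mutant wells, and tubb4b in 21 and 20. In mutant wells with 3 or more hmga1a UMIs, 1 well held 120.8 of 174.9 transcripts of hspb9l and 1 well 71.6 of 157.9 of tubb4b. HSPB1, another small heat shock protein gene, was also higher in 7 of 7 plates on this scale. On the TMM scale it was lower in wild-type plate 2, with 2258.7 CPM in positive wells against 2373.7 in zero wells. Its log2 fold change was 0.51 over all plates (edgeR adjusted p = 0.383) and 0.30 in the wild-type plates.

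**Figure D4:**
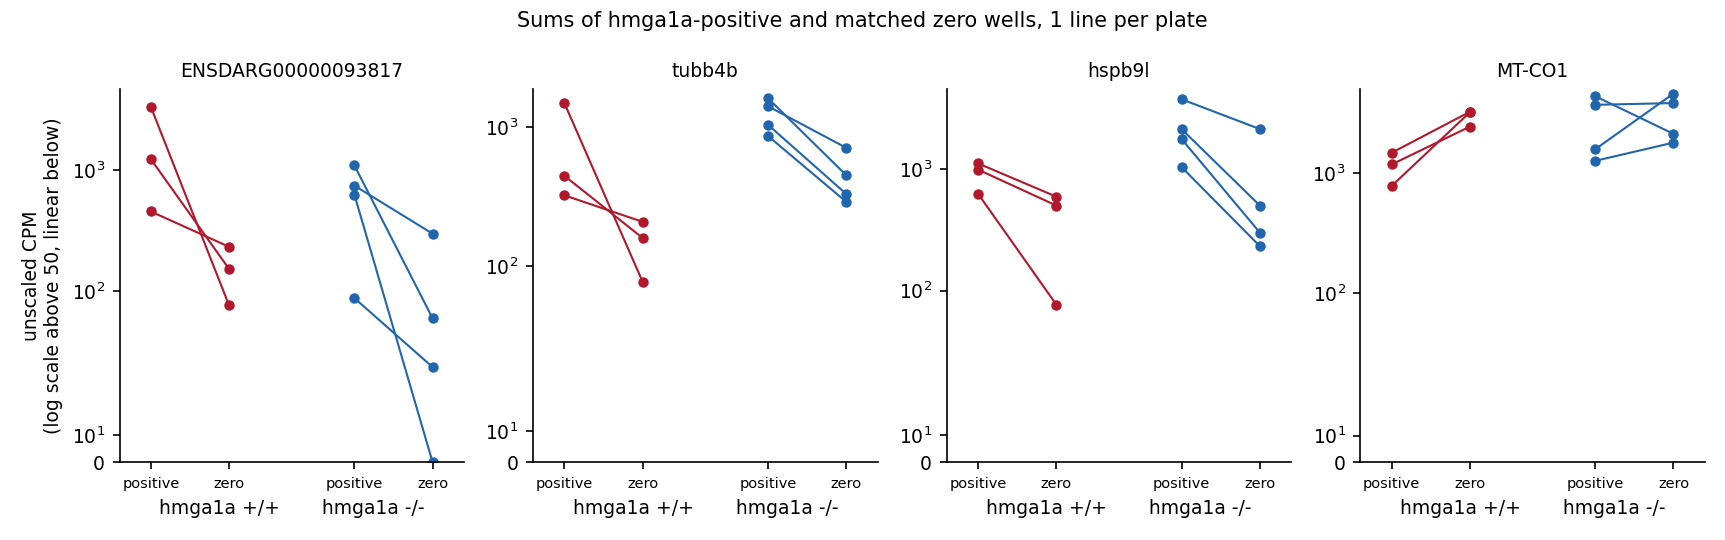
Unscaled CPM (y axis, log scale above 50 and linear below) of 4 genes in the sums of hmga1a-positive wells and of matched zero wells, 1 line per plate, in 3 wild-type plates (red) and 4 mutant plates (blue). The first 3 genes are higher on the positive side in all 7 plates, while MT-CO1 is lower there in 6 and higher in mutant plate 2, with 4378 in positive wells against 2124 in zero wells.

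**Figure D5:**
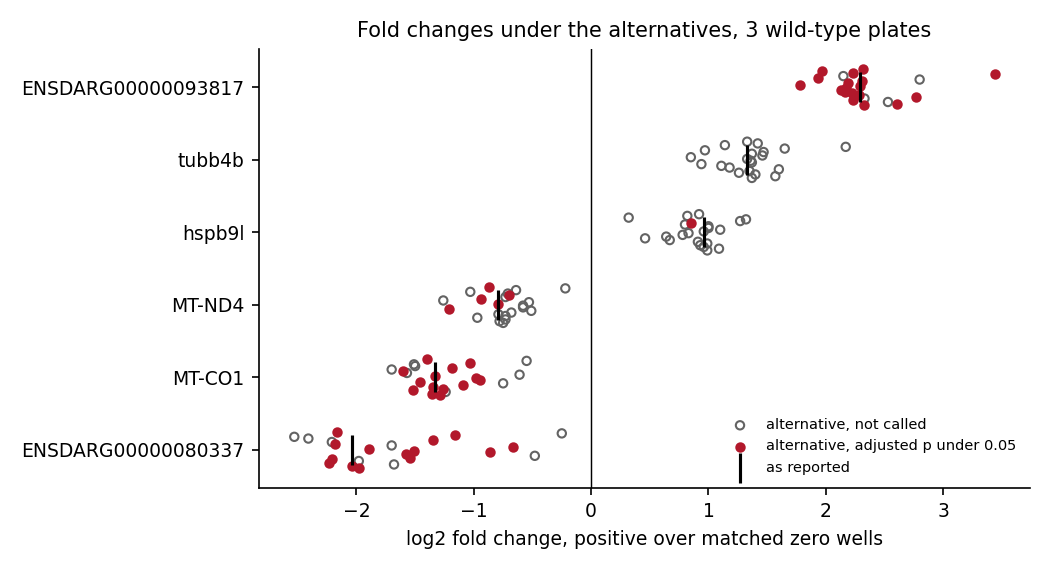
Log2 fold change of 6 genes in the 3 wild-type plates (x axis) as reported (black bar) and under each alternative (points, red where the edgeR, DESeq2 or limma adjusted p is under 0.05). ENSDARG00000093817 is called in 18 of 22 alternatives, MT-CO1 in 14 and tubb4b in 0, and each of the 6 stays on its side of zero.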

How the data were processed

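The authors deposited estimated counts for each gene in each well of CEL-seq2 plates, with decimals. Each of the 857630 values over 0 equals, within 0.0051, a UMI number after saturation correction with 4096 barcodes. The submitters' processing notes list BWA 0.6.2. No source used here gives the genome build, annotation or treatment of multi-mapped reads. Plates were sequenced in 2 runs, per the flow cells in the deposited tables' names: run 1 held wild-type plate 1 and mutant plates 1 and 2, run 2 the others. Both sides of each pair came from 1 plate. Columns are well numbers, so barcodes shared between plates could not be counted.

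Genes were named from a table that gave a symbol for 13087 of 16394 genes. Mitochondrially encoded genes were the 13 with an MT- symbol, so any without a symbol stayed in the well totals. Positive wells were paired 1:1 with zero wells of their plate, without replacement, so that the summed distance of log totals was smallest (scipy 1.17.1). Estimates were summed per plate and side, rounded, and tested with edgeR 4.0.16 (R 4.3.3): TMM scaling, filterByExpr by side, plate as block, quasi-likelihood test, and p-values adjusted over all tested genes by Benjamini-Hochberg, with calls under 0.05. The genotype difference was the interaction term over all 7 plates. limma 3.58.1 and DESeq2 1.42.0 served as alternatives. On data simulated for the positive against zero comparison over 1163 genes, edgeR recovered 26.8% of 2-fold and 79% of 4-fold changes, and 0.35% of genes with no change were called. Counts were drawn with the spread of the same fit and without plate effects. These rates therefore cannot show whether that spread is too small for genes carried by few wells. Plates carry no replicate number in the labels and were numbered in order of deposit.

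Named genes were those called, then those with the smallest unadjusted p among genes with 1 sign in all 3 plates, up to 12 per direction, members of 6 lists (high mobility group, Polycomb, cell cycle, border zone, transcription factors, genes called between genotypes) and up to 3 genes of every other list. They include fthl27 and PCCB, which were added after their values were seen, and the text prints a part of them. Wells, lists and tests were chosen with earlier results of these data known. Lists were described by counts and medians, with no set test. Wells under the 2 thresholds stayed out of all comparisons. Alternatives covered scaling, test, filter, matching, thinning, thresholds and each plate left out in turn. Those on genes per well, mitochondrial wells, leukocyte transcripts, single wells and all 7 plates were chosen after seeing the data. No sequences are shown.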

Additional observations from a re-analysis of the deposited data

Results flagged for a closer look

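hmga1a transcripts were also counted in wells outside the comparison. Of the 28 wild-type wells with enough transcripts but a MYL7 share under 2%, 5 held hmga1a (17.857%), against 3 of 53 such mutant wells (5.66%). Of the 653 wild-type wells under 1000 transcripts, 9 held hmga1a (1.378%), against 4 of 1002 mutant wells (0.399%). These shares are pooled over plates, and by plate the genotypes overlapped. Under 1000 transcripts the shares were 1.754%, 1.648% and 0.538% in wild-type plates, against 1.19%, 0.334%, 0 and 0% in mutant plates. Under the MYL7 threshold they were 28.6%, 11.1% and 16.7% in wild-type plates, against 8.70%, 12.5%, 0 and 0% in mutant plates. It was not compared with the cardiomyocyte wells by a test.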

How the results depend on the processing

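The count of 9 genes was 3 with DESeq2 size factors, with the DESeq2 test, without the plate block, with totals matched on mitochondrial genes too, with MYL7 of at least 5% and with wells matched on genes per well. It was 4 without a filter and with the second-best wells, 5 after thinning, 2 without a MYL7 threshold, 1 with the filter over all 6 sums or without wells over 5% mitochondrial, and 0 with limma-voom (44 at an unadjusted p under 0.05) or positivity at 2 UMIs (29). It was 7 with 2 matched wells, 10 with all zero wells unmatched, and 9 with observed UMI numbers, with wells of at least 2000 transcripts and without the leukocyte-rich well. Leaving out each plate gave 0 to 12 calls. The wild-type minus mutant count of 0 was 3 without a filter, with nppb among them. The all-plate count of 3 ran from 0 to 12 with a plate left out and was 0 in mutant plates alone.

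Of the named genes, 59 kept their sign throughout, the 9 called ones among them, and 47 turned in at least 1 alternative. 5 genes not called were called in 1 alternative each. For those whose values are given above, the fold changes that turned, in log2, were as follows. With second-best wells they were HSPA9 -0.31, ptmaa 0.01, BAG3 0.29, nppa 0.16, HMGB3 (ENSDARG00000056725) -0.41, hmgn7 0.05, KCNV1 0.08 and hmgn6 0.32. With totals matched on mitochondrial genes they were nppb 0.63, nppa 0.26, hmgn7 0.09 and hspb6 0.04. With matching on genes per well they were TBX20 -0.01 and HMGB3 (ENSDARG00000056725) -0.11, which had -0.12 with 2 matched wells. Without wells over 5% mitochondrial they were nppb 0.03 and hmgn7 0.02. With the leukocyte-rich well left out they were fthl27 -0.06 and actb2 -0.07. With 2 or more UMIs they were nppa 0.01 and hmgn7 0.22. After thinning they were actb2 -0.06, MT-ND5 0.03 and hspb6 0.36. With MYL7 of at least 5% they were actb2 -0.28, hmgn6 0.08 and hspb6 0.02. Without a MYL7 threshold they were ptmaa 0.99, PCNA -0.23 and MUSTN1 -0.24. For ptmaa they were 0.01 with DESeq2 factors, 0.27 with DESeq2, 0.53 with limma-voom and 0.03 without the plate block. For hspb6 they were 0.04 with DESeq2 factors, 0.14 with limma-voom, 0.09 with the filter over all sums and 0.01 without the block. With a plate left out, HMGB3 (ENSDARG00000006408) ran over -0.85 to 1.30, HAND2 over -0.73 to 1.03, NKX2-5 over -0.08 to 0.34, nppb over -0.61 to 0.45, KCNV1 over -0.32 to 0.03 and hspb6 over -0.50 to 0.20.

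The difference of median totals was -51.0 transcripts with wells of at least 2000 transcripts. That of spike-in shares was 0.737 percentage points without a MYL7 threshold and 2.27 with matching on genes per well, where that of MYL7 shares was 0.087. The causes were not tested. With 3 plates and 4 pairs in plate 1, 26.8% of simulated 2-fold changes were found.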
